A study of Mus musculus with 2 samples.

Results

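Glutathione S-transferases (GSTs) were followed in single-cell RNA sequencing of mouse liver, as 8 genes (Gsta1, Gsta3, Gsta4, Gstm1, Gstm2, Gstm3, Gstp1 and Gstt1) of the 30406 genes that both libraries list under the same Ensembl identifier. These genes were picked because several of them were higher in hepatic cells of the injured library, so their values in that contrast are a description and carry no test. The study compared liver cells of healthy mice with those of mice injured by carbon tetrachloride (CCl4), a toxin that hepatocytes turn into a radical, with 1 library per condition. Both libraries came from Col1a2CreER:Rosa26tdTomato mice, in which a drug-inducible Cre under the Col1a2 promoter, active in collagen-making cells, switches on a red fluorescent protein. Per the study's methods, CCl4 in corn oil was injected into the abdomen repeatedly over weeks, starting in young adult animals. Immune cells carrying CD45 were depleted with beads in both groups. The methods also name a density step with Nycodenz ahead of the beads. Its effect on which hepatocytes remained was not tested. Whether several animals were pooled in a library is not given in the sources used here, and without replicate libraries every interval below covers counting error only and no p-value was computed.

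Expression was read as unique molecular identifiers (UMIs), where 1 UMI is 1 RNA molecule that was captured in a droplet. The 2 files held 6297 healthy cells with 51122846 UMIs and 8460 CCl4 cells with 97611831 UMIs, of which 5602 and 7314 cells were kept, with medians of 6783.5 and 11876 UMIs. The healthy matrix was written by software version 3.1.0 and the CCl4 matrix by version 6.0.1, on gene lists of different length, so an effect of the software cannot be told apart from one of the injury. Cells of both libraries looked male, with Xist in 6 and 8 cells and at least 1 UMI of 4 Y-linked genes in 3659 and 4723 cells. The libraries shared 10 cell barcodes, none of them in a hepatic cell.

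GSTs couple the tripeptide glutathione to reactive compounds, which makes them soluble and ready for export, and the liver is a main site of this step of detoxification. The soluble enzymes fall into classes, of which alpha (Gsta), mu (Gstm), pi (Gstp) and theta (Gstt) are covered here. Many alpha, mu and pi genes are known targets of NRF2, a transcription factor that is released under oxidative or electrophilic stress and binds antioxidant response elements in DNA.

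Hepatic cells had to hold at least 5 UMIs of Apoa1, Ttr, Fgb, Ahsg and Hpx together, which encode proteins that hepatocytes secrete. This gate alone took in 2148 healthy cells (38.3%) but 249 CCl4 cells (3.40%), and 58.2% of those healthy cells belonged to cholangiocyte-like and 13.4% to endothelial-like clusters. The 5 genes therefore also had to make up at least 0.5% of a cell's UMIs and to outnumber the marker UMIs of every other cell class, which left 254 healthy cells with 2537355 UMIs and 161 CCl4 cells with 320422 UMIs. At the edge of the gate, 25 healthy and 34 CCl4 cells held 5 to 7 UMIs of the 5 genes, and 1283 and 166 cells just outside it held 3 or 4. All 13 hepatocyte markers were detected in the hepatic cells of both libraries. Of those not used in the gate, Alb, the gene of serum albumin, had 33112 CPM (its UMIs per 1000000 UMIs of the population) in healthy and 6307 CPM in CCl4 hepatic cells. The ratio of Alb was 0.190 there, and 0.823 and 0.625 in the 2 narrower sets of cells defined next. Healthy cells of these 2 sets had less Alb themselves, at 6642 and 9808 CPM, so the healthy side of the comparison changes with the set. Mesenchymal markers were present in 6.69% of the healthy and 95.03% of the CCl4 hepatic cells, where the median was 3 UMIs per cell. All 11 of these markers were detected in the CCl4 hepatic cells and 5 of the 11 were at 0 in the healthy ones.

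The hepatic cells of the libraries also differed in make-up. In the healthy library 119 of them lay in a deeply covered hepatocyte-like cluster that gave 89.1% of their UMIs, and 128 in a cluster of cells with few UMIs, called the low-UMI cluster here. In the CCl4 library only 3 lay in the former and 155 in the latter, with 87.9% of the UMIs. Members are therefore compared also over the hepatic cells of the low-UMI cluster, with 270570 UMIs in 128 healthy and 281784 UMIs in 155 CCl4 cells, and over hepatic cells with 500 to 2000 UMIs (95 and 117 cells), and other genes over the former. Hepatic cells of the low-UMI cluster had medians of 1598.5 and 1171 UMIs and reached 9537 and 18189, so it is no strict match of depth.

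Across all hepatic cells, the 8 members together made up 0.360% of healthy and 1.14% of CCl4 UMIs, a ratio of CCl4 to healthy CPM of 3.18 [3.06, 3.31] (95% interval in square brackets). Of the 8 members, 6 were at least 2-fold higher and 0 were lower by that much, where 15.9% of the 7407 genes with at least 20 UMIs were at least 2-fold higher and 27.6% lower; since the members were picked on this contrast, nothing is read from that count. In the low-UMI cluster 4 of the 8 were at least 2-fold higher, against a background of 8.12% higher and 15.2% lower among 2882 genes, and in cells with 500 to 2000 UMIs also 4 of 8, against 8.25% higher and 18.2% lower among 1588 genes. The median log2 ratio of the members was 2.19 in all hepatic cells, where that of all genes was 0.06, and 1.24 in the low-UMI cluster, where that of all genes was -0.21. Gsta1, Gstm1, Gstm2 and Gstm3 were the 4 members past 2-fold in each of these 3 sets of hepatic cells. Gstp1 was higher in each set but under 2-fold in the narrower sets, where Gsta3, Gsta4 and Gstt1 had ratios between 0.639 and 1.43.

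**Figure D1:**
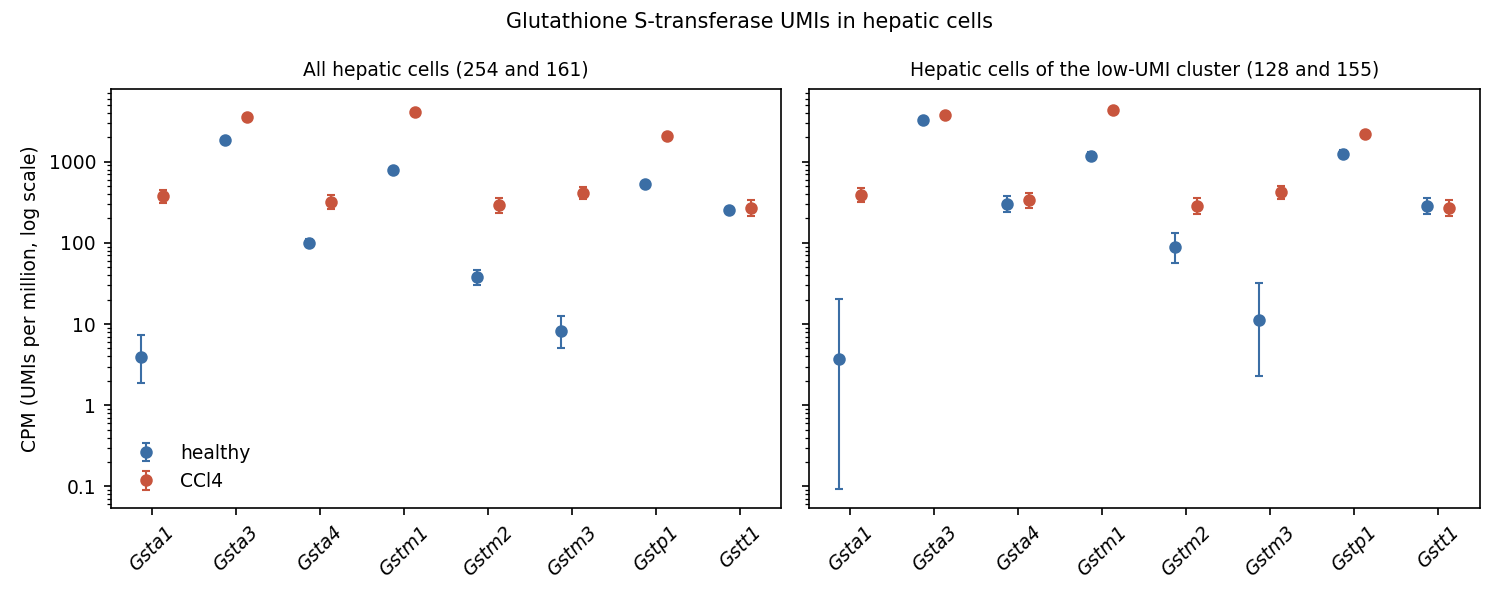
Level of each member in CPM (log scale) in healthy (blue) and CCl4 (red) hepatic cells, for all hepatic cells (left) and those of the low-UMI cluster (right); bars are exact Poisson 95% intervals. Gsta1 and Gstm3 lie below 12 CPM in healthy cells of both panels and between 375 and 419 CPM in CCl4 cells, while Gsta3, Gsta4 and Gstt1 nearly coincide in the right panel.

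Among the alpha class, Gsta1 (ENSMUSG00000074183), an enzyme with activity against organic peroxides, had the largest ratio over all hepatic cells. It had 10 UMIs in the 254 healthy hepatic cells, or 3.94 CPM [1.89, 7.25], and 120 UMIs in the 161 CCl4 hepatic cells, or 375 CPM [311, 448], a ratio of 95.03 [49.9, 203]. Within the low-UMI cluster the counts were 1 and 110 UMIs, a ratio of 106 [18.6, 4209]. In cells with 500 to 2000 UMIs they were 1 and 31 UMIs, and the ratio was lower at 28.3 [4.72, 1154]. The gene lies on chromosome 9 at 78230669-78242683 (GRCm38.p6, the RefSeq equivalent of the mm10 build that the submitters' processing notes list), next to Gm3776 at 78257129-78269166, a near-identical copy. Gm3776 had 6 healthy and 51 CCl4 UMIs in hepatic cells, a ratio of 67.3, and 1 and 48 UMIs in the low-UMI cluster, a ratio of 46.1 [7.89, 1858]. Of the 90-base windows in the last 500 bases of Gsta1 transcripts (GENCODE vM39), 80.4% also occurred in transcripts of Gm3776, so how reads were divided between these copies is uncertain. Their promoters share 284 bases in an alignment with 3 mismatches and 26 gap bases over 300-base windows. The 150 bases before each start site are shown because these neighbours were higher together (RefSeq, GRCm38.p6; Gsta1 at chr9:78230519-78230668, plus strand; Gm3776 at chr9:78256979-78257128, plus strand), and the same run of bases appears in both with a shift.
Gsta1: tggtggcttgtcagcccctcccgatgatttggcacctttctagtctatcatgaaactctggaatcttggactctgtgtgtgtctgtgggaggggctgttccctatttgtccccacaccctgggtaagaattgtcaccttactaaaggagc
Gm3776: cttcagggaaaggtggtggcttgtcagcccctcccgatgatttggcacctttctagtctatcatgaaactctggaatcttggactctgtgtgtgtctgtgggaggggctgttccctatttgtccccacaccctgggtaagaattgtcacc

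Gsta3 (ENSMUSG00000025934; chromosome 1, 21240565-21265575), an alpha enzyme known for clearing aflatoxin epoxide in mouse liver, had the most UMIs of the members in healthy hepatic cells. Its level was 1868 CPM [1815, 1922] in healthy and 3545 CPM in CCl4 hepatic cells, a ratio of 1.90 [1.78, 2.03]. Cells of the low-UMI cluster had 3278 and 3758 CPM, a ratio of 1.15 [1.05, 1.25], and in cells with 500 to 2000 UMIs the ratio was 0.910 [0.781, 1.06]. The difference over all hepatic cells was thus much smaller, or not detectable, in these narrower sets of cells.

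Gsta4 (ENSMUSG00000032348; chromosome 9, 78191966-78209349), whose enzyme is known for conjugating 4-hydroxynonenal, an aldehyde from oxidised lipids, followed Gsta3. It had 253 healthy and 103 CCl4 UMIs, or 99.7 and 321 CPM, a ratio of 3.22 [2.54, 4.07]. For the low-UMI cluster the levels were 303 and 337 CPM, with a ratio of 1.11 [0.819, 1.51], and in cells with 500 to 2000 UMIs the ratio was 1.43 [0.806, 2.61]. Within the alpha class the 3 members therefore differed: the ratio of Gsta1 in the low-UMI cluster had a lower bound of 18.6, and those of Gsta3 and Gsta4 had upper bounds of 1.25 and 1.51. Gsta2 (41 CCl4 and 158 healthy UMIs), an alpha gene outside the members, had a ratio of 2.05 over all hepatic cells and 0.735 [0.463, 1.16] within the low-UMI cluster.

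The mu class genes Gstm3, Gstm2 and Gstm1 lie side by side on chromosome 3 (107963696-107969174, 107981702-107986420 and 108012250-108017973). Gstm3 (ENSMUSG00000004038) had 21 healthy UMIs, or 8.28 CPM [5.12, 12.7], and 133 CCl4 UMIs, or 415 CPM [348, 492]. Its ratio was 50.2 [31.5, 83.7] over all hepatic cells and 37.8 [12.6, 186] within the low-UMI cluster, where it had 3 and 118 UMIs. With 2 and 39 UMIs in cells of 500 to 2000 UMIs, the ratio was lower there at 17.8 [4.61, 152]. No 90-base window of its transcript ends occurred in another gene.

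Gstm1 (ENSMUSG00000058135), a major mu enzyme of mouse liver, was 798 CPM [764, 834] in healthy and 4119.6 CPM in CCl4 hepatic cells, a ratio of 5.16 [4.81, 5.54]. Within the low-UMI cluster it had 322 and 1223 UMIs, a ratio of 3.65 [3.22, 4.14], and with 500 to 2000 UMIs per cell the ratio was 3.27 [2.63, 4.09]. Gstm1 had the most UMIs of the members in CCl4 hepatic cells, whereas in healthy ones it followed Gsta3. Gstm2 (ENSMUSG00000040562) was lower throughout, with 96 and 93 UMIs or 37.8 and 290.2 CPM, and ratios of 7.67 [5.71, 10.3] over all hepatic cells and 3.20 [2.01, 5.28] within the low-UMI cluster. It was 4.43 [1.94, 11.9] in cells with 500 to 2000 UMIs. Of the other mu genes, Gstm4 (37 and 13 UMIs) had a ratio of 2.78, while Gstm5, Gstm6 and Gstm7 had ratios of 1.46, 1.34 and 1.21. The 3 members of this class were thus higher in CCl4 hepatic cells in each set of cells, by different factors.

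Gstp1 (ENSMUSG00000060803; chromosome 19, 4035411-4037912), the pi class enzyme that mouse hepatocytes express, was 525 CPM [497, 554] in healthy and 2103 CPM in CCl4 hepatic cells, a ratio of 4.01 [3.65, 4.40]. The low-UMI cluster had 1249 and 2183 CPM, a ratio of 1.75 [1.53, 2.001], and in cells with 500 to 2000 UMIs the ratio was 1.90 [1.47, 2.46]. Its neighbour Gstp2 (4040288-4042221) had 3 healthy and 17 CCl4 UMIs, a ratio of 44.9, with 0 and 17 UMIs in the low-UMI cluster, at least 5.44-fold higher against the limit of 3 UMIs that a count of 0 allows, while the exact interval of that ratio started at 3.96. Of the transcript-end windows of Gstp1, 47.8% occurred in Gstp2, so the split between these genes is uncertain. The sum of the pi genes had ratios of 4.09 over all hepatic cells and 1.81 within the low-UMI cluster.

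Gstt1 (ENSMUSG00000001663; chromosome 10, 75783813-75798584), a theta enzyme known for acting on halogenated hydrocarbons, showed no difference detectable at this depth. It had 650 healthy and 87 CCl4 UMIs, or 256 and 272 CPM, a ratio of 1.06 [0.837, 1.33], with 0.936 [0.673, 1.30] in the low-UMI cluster and 0.639 [0.348, 1.15] in cells with 500 to 2000 UMIs. Its relative Gstt3 (187 and 12 UMIs) was lower, with ratios of 0.508 [0.258, 0.909] and 0.225 [0.105, 0.440].

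**Figure D2:**
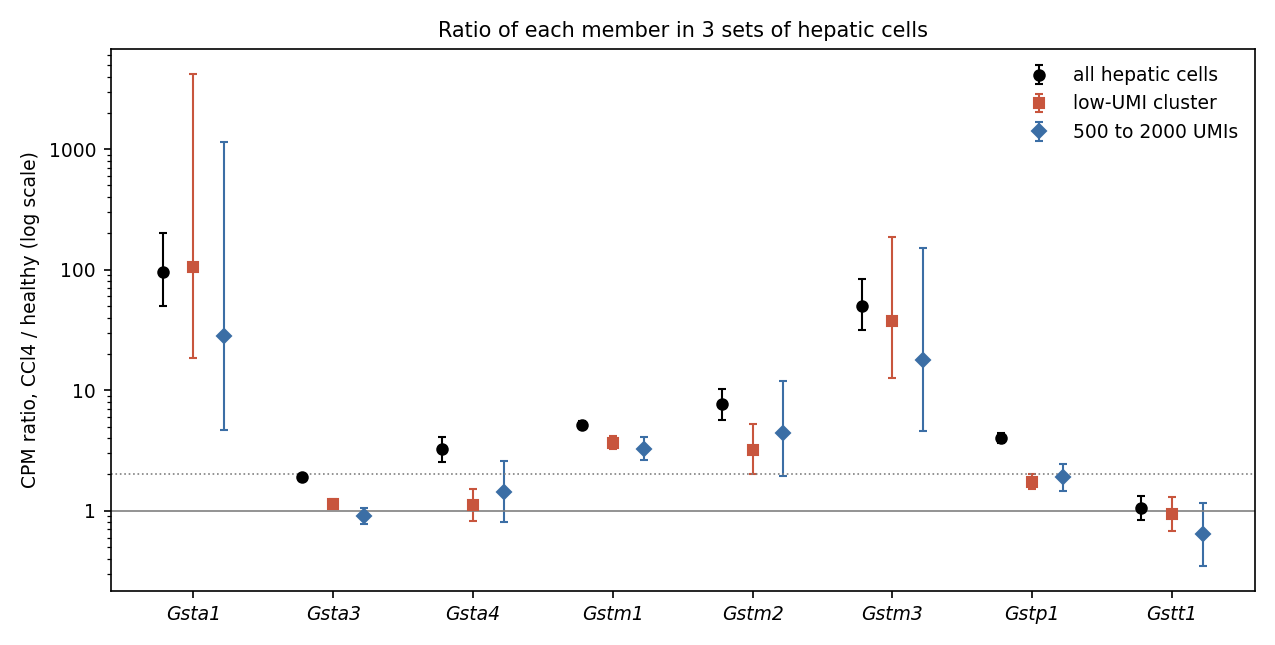
Ratio of CCl4 to healthy CPM (log scale) for each member in all hepatic cells (black circles), the low-UMI cluster (red squares) and hepatic cells with 500 to 2000 UMIs (blue diamonds); bars are exact conditional binomial 95% intervals, the solid line marks 1 and the dotted line 2. Gsta1, Gstm1, Gstm2 and Gstm3 lie above the dotted line in each set, while the bars of Gsta4 and Gstt1 reach the line at 1 in both narrower sets and that of Gsta3 only at 500 to 2000 UMIs.

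The low-UMI cluster also held 78 healthy and 170 CCl4 cells that fell outside the hepatic rule. Gsta1 had 0 and 67 UMIs there (356 CPM in CCl4) and Gstm3 9 and 89 (41.7 and 473 CPM), a ratio of 11.3 [5.71, 25.6]. Gstm1 (1806 and 3507 CPM) and Gstp1 (866 and 2099 CPM) had ratios of 1.94 and 2.42, and Gsta3 (4997 and 3379 CPM) and Gstt1 were lower, with ratios of 0.676 and 0.406. The higher counts of Gsta1 and Gstm3 were thus also present in droplets that the hepatic rule left out.

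Motifs were looked for in the 300-base promoter windows of RefSeq (250 bases before to 50 after the start site, both strands). The core of the antioxidant response element, written TGACNNNGC, occurred in 12.4% of the 32851 promoters and, among the 7 members with an entry, in that of Gsta3 alone, at position -121. TGAGTCA, a site of AP-1 factors, occurred in 5.20% of promoters and in those of Gstp1, at position -74, and Gstp2, at position -89. In both the match was followed by GC, so TGAGTCAGC differed from TGACNNNGC by a G in place of its first C. Other spellings of the antioxidant response element were not searched. Gstm5, whose ratio was 1.46, held both motifs, TGACNNNGC at position -42 and TGAGTCA at -176. Gsta1, Gm3776, Gstm1, Gstm2, Gstm3 and Gstt1 held neither in this window, which says nothing of other spellings or of sites farther away. These promoters are shown from position -150 to -1 with the matches in capitals, followed by that of Gstm3, the member with the next largest ratio after Gsta1 (Gsta3 at chr1:21240435-21240584, plus strand; Gstp1 at chr19:4037913-4038062, minus strand; Gstp2 at chr19:4042222-4042371, minus strand; Gstm3 at chr3:107969175-107969324, minus strand).
Gsta3: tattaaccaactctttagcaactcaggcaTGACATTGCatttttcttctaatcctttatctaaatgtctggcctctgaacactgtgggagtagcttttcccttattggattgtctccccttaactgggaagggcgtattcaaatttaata
Gstp1: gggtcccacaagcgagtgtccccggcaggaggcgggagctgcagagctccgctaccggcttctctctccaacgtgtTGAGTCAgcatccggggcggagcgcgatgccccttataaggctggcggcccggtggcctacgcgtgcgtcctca
Gstp2: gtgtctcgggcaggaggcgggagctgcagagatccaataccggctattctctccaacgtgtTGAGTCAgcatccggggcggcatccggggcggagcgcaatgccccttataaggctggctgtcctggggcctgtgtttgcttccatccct
Gstm3: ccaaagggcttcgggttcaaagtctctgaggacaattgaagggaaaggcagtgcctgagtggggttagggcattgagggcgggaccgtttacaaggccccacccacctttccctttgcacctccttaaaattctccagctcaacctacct

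The promoters of Gstp1 and Gstp2 were identical at 76.6% of aligned positions, and those of Gstm1 and Gstm3 at 45.1%, close to the 46.4% between Gstp1 and Gsta1, which belong to different classes.

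The share of cells in which each transcript was found was read next. Such a share rises with the number of expressing cells and also with the level per cell, so it cannot separate the 2. Gsta1 was found in 6 of 254 healthy and 46 of 161 CCl4 hepatic cells, with at most 13 UMIs in a cell, and its 10 richest CCl4 cells held 59.2% of its UMIs. Gstm3 was found in 17 and 44 cells. Both were found together in 1 healthy and 27 CCl4 cells, and at least 1 of them in 8.66% and 39.1% of cells. These shares depend on depth, with medians of 3042 UMIs per healthy and 1223 per CCl4 hepatic cell, so each cell was thinned to 500 UMIs.

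At 500 UMIs, Gsta1 was expected in 0.278% [0.00187, 1.97] of healthy and 13.3% [8.48, 19.6] of CCl4 hepatic cells, against 2.36% and 28.6% without thinning. The intervals of thinned shares apply the binomial formula to expected counts that are not whole, so they are approximate. Gstm3 was expected in 0.460% [0.0184, 2.29] and 15.1% [9.96, 21.6], and Gstm2 in 2.25% [0.805, 4.92] and 11.9% [7.36, 18.0]. Gstm1 was expected in 31.8% [26.1, 37.9] and 67.2% [59.4, 74.4] and Gstp1 in 29.4% [23.9, 35.4] and 52.9% [44.9, 60.8].

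The shares of the other 3 members were closer, with 62.5% and 71.7% for Gsta3, 9.16% and 13.2% for Gsta4 and 13.5% and 10.0% for Gstt1. In 506 CCl4 immune-like cells the thinned shares were between 0.149% and 2.88%, far under those of the CCl4 hepatic cells. They are no pure background, since CCl4 macrophage and monocyte-like cells held Gstm1 in 29.1% of cells without thinning. The 20 healthy immune-like cells were too few to compare. Per cell, the median share of UMIs that came from the 8 members was 0.417% in healthy and 0.810% in CCl4 hepatic cells, with middle 50% ranges of 0.235% to 0.634% and 0.489% to 1.34%.

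**Figure D3:**
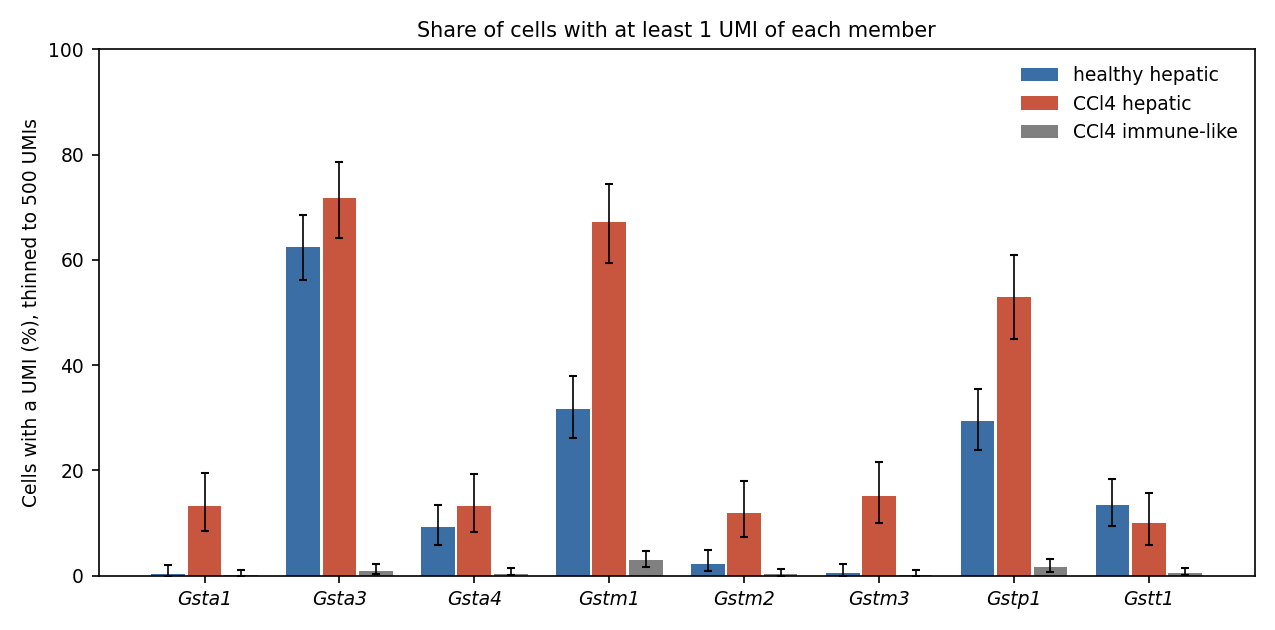
Share of cells with at least 1 UMI of each member, in percent, after thinning every cell to 500 UMIs, for healthy hepatic (blue), CCl4 hepatic (red) and CCl4 immune-like (grey) cells. Bars start at 0 and whiskers are approximate binomial 95% intervals on expected counts. Gstm1 stands at 31.8% and 67.2% and Gsta1 at 0.278% and 13.3% in healthy and CCl4 hepatic cells, and the grey bars stay at or below 2.88%.

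Hepatocytes differ along the liver lobule, with central ones near the draining vein carrying more drug-metabolising enzymes than portal ones near the incoming vessels. To place the members along this axis, the 192 healthy hepatic cells with at least 10 UMIs of 8 central and 6 portal genes (no GST among them) were divided at the median share of central UMIs, 4.17%, into 96 and 96 cells. The division is a range and not a cell type, since 123 cells lay within 10 percentage points of it. It separated Cyp2e1, one of the central genes used, with 4657 against 4 UMIs. Of all 6876 genes with at least 20 UMIs, 7% were at least 2-fold higher on the central side and 3.52% on the portal side.

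The mu members lay on the central side. Gstm2 had 93 central and 0 portal UMIs, at least 16.03-fold higher against the limit of 3 UMIs, and Gstm3 had 20 and 0, at least 3.45-fold higher, while the exact intervals of these ratios started at 12.8 and 2.55. Gstm1 was 998 CPM [950, 1048] on the central and 404 CPM [363, 450] on the portal side, a ratio of 2.47 [2.19, 2.78]. Among the alpha members, Gsta3 was also higher centrally, with 2240.4 against 1067 CPM, a ratio of 2.10 [1.95, 2.26], but Gsta4 was lower, with 66.4 against 163 CPM, a ratio of 0.408 [0.314, 0.529]. Gstp1 was lower centrally too, with 431 against 696 CPM, a ratio of 0.619 [0.554, 0.692]. The portal side held 43 and the central side 34 cells of the low-UMI cluster. Healthy hepatic cells of that cluster had 1249 CPM of Gstp1 and 303 CPM of Gsta4. The part of this mix in the ratios of both genes was not tested. Gstt1 differed little, with a ratio of 1.06 [0.893, 1.25], and Gsta1 had 3 central and 7 portal UMIs, too few to place.

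**Figure D4:**
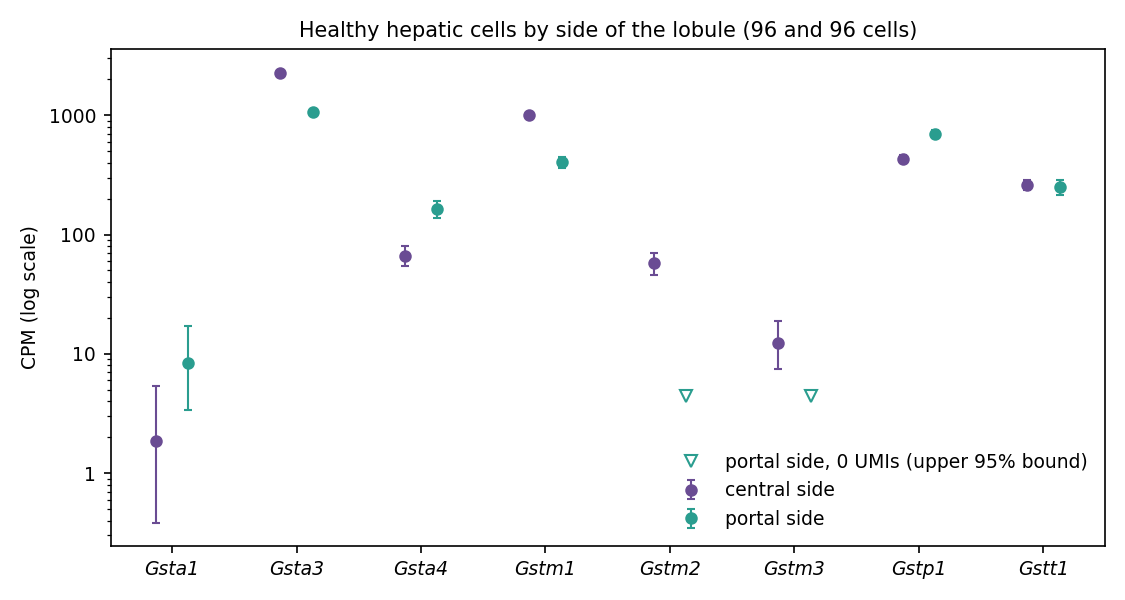
Level of each member in CPM (log scale) in the 96 central-side (purple) and 96 portal-side (green) healthy hepatic cells, with exact Poisson 95% intervals; open triangles mark the upper 95% bound of a count of 0. Gsta3 and Gstm1 lie higher on the central side, Gsta4 and Gstp1 on the portal side, and Gstm2 and Gstm3 have no portal UMI.

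The zonation genes themselves did not all move with the members in CCl4 cells. In the low-UMI cluster all 6 portal genes were at least 2-fold lower, from a ratio of 0.0600 for Cyp2f2 to 0.461 for Hsd17b13, while over all hepatic cells Sds and Ass1 had ratios of 0.772 and 0.775. Of the central genes, Cyp2e1 (37 and 15 UMIs), which activates CCl4, Oat (119 and 11) and Glul (70 and 14) were lower, with ratios of 0.389, 0.0888 and 0.192, while Cyp1a2 (2 and 61), Lect2 (8 and 83) and Gulo (10 and 21) were higher, with ratios of 29.3 [7.77, 247], 9.96 [4.83, 23.8] and 2.02 [0.909, 4.80]. Over all hepatic cells these 3 had ratios of 0.916 [0.738, 1.13], 2.27 [1.82, 2.79] and 0.497 [0.336, 0.710], so Gulo was lower and Cyp1a2 not detectably different there. Rgn, another central gene, had 181 and 278 UMIs in the low-UMI cluster, a ratio of 1.47 [1.22, 1.79]. Its ratio over all hepatic cells was 1.26 [1.11, 1.42]. The central genes thus went both ways in the low-UMI cluster, where the mu members, which were central in healthy liver, were higher.

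Apart from the hepatic cells and the rest of the low-UMI cluster described above, the members were read in 16 populations of at least 50 cells, against the level that free hepatocyte RNA would give, estimated from 7 hepatocyte genes (Alb and 6 others). A member was counted as above that level where the lower bound of its 95% interval lay above it. Gsta1 and Gstm3 were so in 0 of 16 populations and reached at most 6.40 CPM in them, from 3 UMIs each in CCl4 T and NK cell-like cells. In CCl4 mesenchymal-like cells (3328 cells), whose markers were the ones found in CCl4 hepatic cells, Gsta1 was 0.214 CPM and Gstm3 0.491 CPM, against 375 and 415 CPM in the hepatic cells. Gstm1 and Gstm2 were 147 and 153 CPM in these mesenchymal-like cells, against 4119.6 and 290.2 CPM in CCl4 hepatic cells, and the part of mesenchymal RNA in the level of Gstm2 was not tested. Gstm1 exceeded the free RNA level in 15 of 16 populations, Gstm2 in 14, Gstp1 in 14, Gstt1 in 13, Gsta4 in 9 and Gsta3 in 6.

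Among these 16 populations, which leave out the low-UMI cluster, Gsta3 was highest in healthy mesothelial-like cells, which line the liver surface, at 578 CPM, and in healthy cholangiocyte-like cells, which line the bile ducts, at 419 CPM. Free RNA alone was expected to give 12.1 CPM of Gsta3 in these mesothelial-like and 249 CPM in these cholangiocyte-like cells. The cholangiocyte-like level was thus 1.68 times the expected one. In healthy endothelial-like cells the 26.8 CPM of Gsta3 matched the 27.6 CPM expected from free RNA. Gstm1 was highest among them in healthy cholangiocyte-like cells at 469.5 CPM, followed by healthy mesothelial-like cells at 279 CPM. Gstm2 had another order: healthy mesothelial-like cells (201 CPM) and CCl4 mesenchymal-like cells (153 CPM) exceeded healthy hepatic cells (37.8 CPM). Gstt1 was at 275 CPM in healthy mesothelial-like, 272 CPM in CCl4 hepatic, 256 CPM in healthy hepatic and 245 CPM in healthy cholangiocyte-like cells, and neighbours in this order had overlapping intervals. It was 188 CPM in CCl4 mesenchymal-like cells.

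Gsta4 was higher in mesothelial-like (199 CPM) than in hepatic cells (99.7 CPM) of the healthy library, but healthy hepatic cells of the low-UMI cluster had 303 CPM, so this order depended on the hepatic cells taken. Its CCl4 levels were 192 CPM in mesothelial-like and 321 CPM in hepatic cells. A cluster of 74 CCl4 cells with few UMIs and 8 mesothelial markers had 251 CPM. Gstp1 was found in each of the 16 populations, from 19.7 CPM in neutrophil-like to 147 CPM in mesothelial-like cells of the CCl4 library. Levels are set side by side only across populations of 1 gene.

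**Figure D5:**
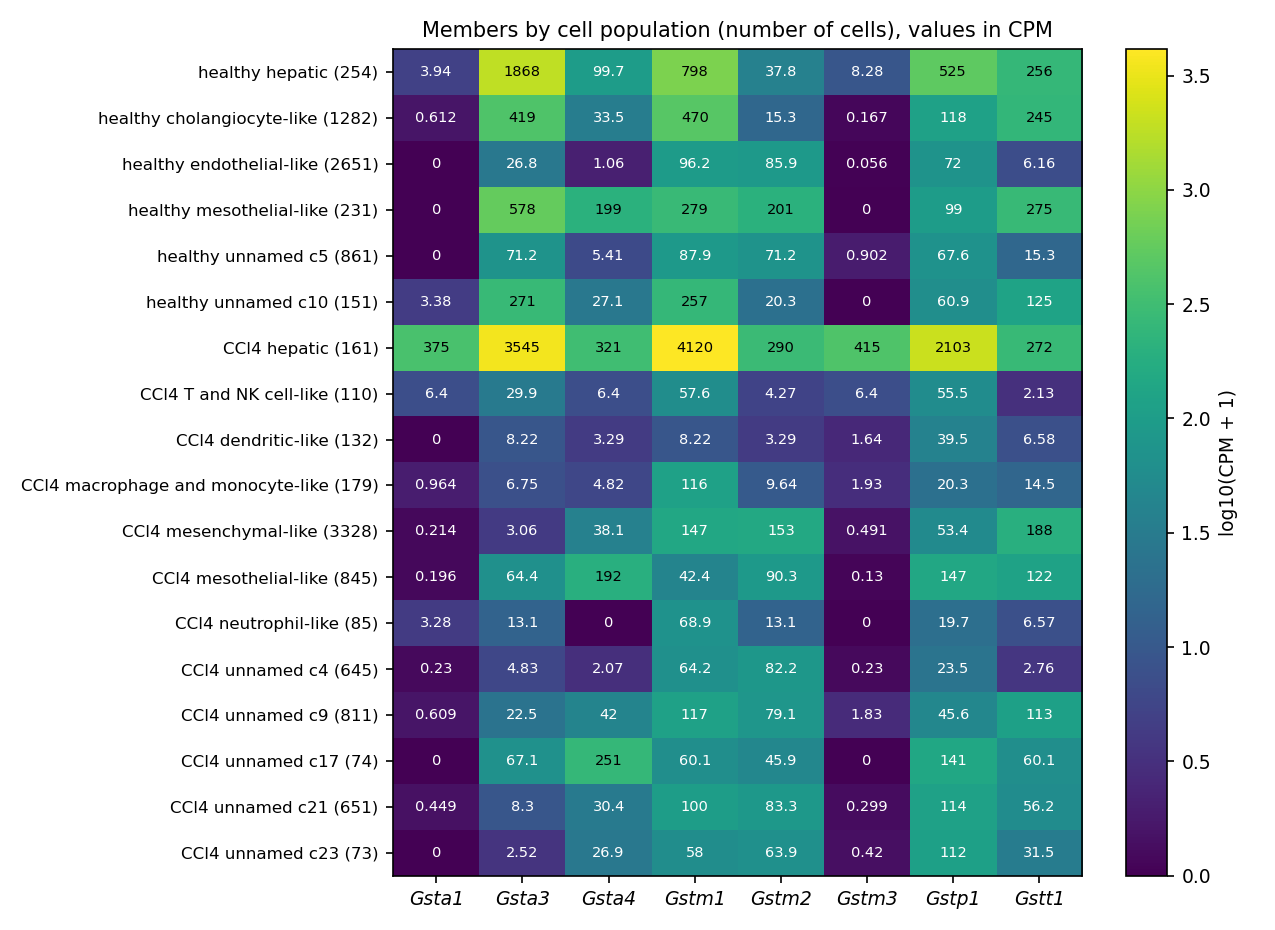
Heat map of the members (columns) in 18 populations with at least 50 cells (rows, with library and number of cells), coloured by log10(CPM + 1) with the CPM printed in each field; clusters that met no class rule are given by number and low-UMI cluster cells outside the hepatic rule are not drawn. Gsta1 and Gstm3 stand out in the row of CCl4 hepatic cells alone, and Gsta3 is also bright in healthy mesothelial-like (578 CPM) and cholangiocyte-like (419 CPM) cells. Free hepatocyte RNA is not subtracted here, and 249 CPM of Gsta3 was expected from it in the cholangiocyte-like cells.

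Mesothelial-like cells were the other named class with at least 50 cells in both libraries (231 healthy and 845 CCl4 cells), and here 4 members were at least 2-fold lower in the CCl4 library and Gstp1 was higher. In a finer clustering 624 CCl4 cells were also named endothelial-like, but that class was not compared between the libraries. Gsta3 had 2219 healthy and 988 CCl4 UMIs, or 578 and 64.4 CPM, a ratio of 0.111. Gstm1 was 279 and 42.4 CPM, a ratio of 0.152. Gstm2 was 201 and 90.3 CPM and Gstt1 275 and 122 CPM, with ratios of 0.448 and 0.444. Gsta4 had a ratio of 0.965, and Gstp1 was 1.49-fold higher [1.33, 1.66]. Gsta1 and Gstm3 had 0 healthy UMIs and 3 and 2 CCl4 UMIs. These 4 were among 6 members with at least 20 UMIs, where 12.4% of 12413 genes were lower and 13% higher. The healthy and the CCl4 cells lay in different clusters.

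The wider glutathione system was read from 6 lists of genes. Of 21 other GST and GST-like genes, 15 had at least 20 UMIs in hepatic cells, of which 6 were at least 2-fold higher and 2 lower, against the 15.9% and 27.6% of all genes. In the low-UMI cluster these were 3 higher and 3 lower of 13, against 8.12% and 15.2%, and the same shares stand behind the lists that follow. Gm3776 and Gstp2 had the largest ratios, followed by Gstp3 (52 and 25 UMIs) at 3.81, and Gstk1, a mitochondrial and peroxisomal enzyme, was lowest over all hepatic cells at 0.423. In the low-UMI cluster Gstk1 had a ratio of 0.274 and Gstt3 was lowest at 0.225. Mgst1, the membrane-bound microsomal GST, was among the most abundant, with 11565 healthy and 657 CCl4 UMIs. Its ratio was 0.450 [0.415, 0.487] in all hepatic cells but 1.18 [1.04, 1.34] in the low-UMI cluster. Gsto1 and Gstz1 were lower in the low-UMI cluster, with ratios of 0.289 and 0.544.

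Of the genes of glutathione synthesis and recycling, 2 of 11 were at least 2-fold higher and 4 lower over all hepatic cells, and 0 higher and 3 lower of 10 within the low-UMI cluster. Gclc and Gclm, the subunits of the rate-limiting enzyme of glutathione synthesis, had ratios of 1.09 [0.807, 1.44] and 1.54 [1.29, 1.84], and of 1.45 [0.919, 2.33] and 0.831 [0.659, 1.05] in the low-UMI cluster. Cth, which makes cysteine from cystathionine, was lower in both, from 1404 to 58 UMIs with a ratio of 0.327 [0.247, 0.425], and 0.149 [0.110, 0.198] in the low-UMI cluster. Ggct and Gss were the 2 that were higher, with ratios of 2.59 and 2.22.

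Of the peroxidases and redoxins, 0 of 8 were at least 2-fold higher, with 1 lower over all hepatic cells and 2 lower within the low-UMI cluster. Glo1, which uses glutathione to remove methylglyoxal, had ratios of 0.261 [0.211, 0.319] and 0.225 [0.177, 0.284]. Gpx1, the main cytosolic glutathione peroxidase, had ratios of 0.853 and 0.480. Among the transporters, Abcc2 and Abcc3, which carry glutathione conjugates out of hepatocytes, had 260 and 136 healthy against 4 and 2 CCl4 UMIs, with ratios of 0.122 [0.0329, 0.316] and 0.116 [0.0140, 0.429], but the low-UMI cluster held too few UMIs of either to compare.

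Of NRF2 and its targets, 3 of 11 genes were at least 2-fold higher and 2 lower over all hepatic cells, against 15.9% and 27.6% of all genes, and 2 higher and 0 lower of 7 within the low-UMI cluster, against 8.12% and 15.2%. Cbr3, a carbonyl reductase, had 1 healthy and 24 CCl4 UMIs, a ratio of 190.1 [31.0, 7815]. Srxn1, which repairs oxidised peroxiredoxins, had ratios of 6.04 [3.59, 10.1] and 4.32 [1.75, 12.8], and Txnrd1, thioredoxin reductase, of 3.18 [2.39, 4.19] and 2.76 [1.69, 4.64]. The 2 lower genes were Ephx1 (126 and 6 UMIs), with a ratio of 0.377 [0.136, 0.844], and Aox1 (38 and 2 UMIs), with 0.417 [0.0487, 1.61]. The low-UMI cluster held too few UMIs of either to compare. Nqo1, a widely used NRF2 target, had 10 and 8 UMIs and fell below the minimum, and Nfe2l2 itself, the gene of NRF2, had a ratio of 1.33 [0.747, 2.24]. Of the nuclear receptors CAR (Nr1i3), PXR (Nr1i2) and AHR with their targets, 0 of 5 genes were at least 2-fold higher and 3 were lower. These were Nr1i2 with a ratio of 0.487 [0.129, 1.31], Por with 0.466 [0.209, 0.908] and Cyp2b10 with 23 healthy and 0 CCl4 UMIs. Against the limit of 3 UMIs Cyp2b10 was not lower, and 1 gene of this list had enough UMIs in the low-UMI cluster.

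The genes whose levels followed a member most closely were found by Pearson's r of log2(CPM + 1) over the 18 populations and 13484 genes, as a description of populations that share libraries. Gstm3 (r = 0.904) was the second closest gene to Gsta1, between the unannotated C130080G10Rik and Cyp3a44, and Cyp3a44 (r = 0.929) was closest to Gstm3, followed by 9130409I23Rik and Cyp2a4. Both Gsta1 and Gstm3 stood out in CCl4 hepatic cells alone, so these values of r rest largely on the population that the members were picked on. Gsta4 was closest to Aldh1a1 (r = 0.953), a retinaldehyde dehydrogenase, with Tcea3 and Dhrs4 next. Gstp1 followed mitochondrial genes, Chchd2 (r = 0.954), Uqcr10 and Ndufs6. Gsta3 was closest to Stard10, Car3 and Nrn1, Gstm1 to Hibch, Acot13 and Acad8, Gstm2 to Cyb5r3, Copz2 and Crip2, and Gstt1 to Fxyd1, Me1 and Pacsin3.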

How the data were processed

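Liver cells of 1 healthy and 1 CCl4-injured sample were profiled by droplet sequencing of transcript 3' ends (10x Genomics). The authors deposited raw UMI counts (whole numbers) for each barcode of a called cell and each gene; per the file headers the software versions were 3.1.0 and 6.0.1. The submitters' processing notes list the builds mm10 and GRCh38, and the genes of both files are mouse genes. The members, gene lists and alternatives were chosen with earlier results of these data known.

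The 30406 genes on both lists were used. Cells with at least 500 UMIs, 200 genes and at most 30% mitochondrial UMIs were kept, and the highest Scrublet scores were removed at 0.8% per 1000 cells (277 healthy and 487 CCl4 cells). Leiden clusters (scanpy 1.11.5, resolution 1, without GST and glutathione genes) were named from markers of 11 classes; names may differ from those of the study. UMIs were summed per population and given as CPM with exact Poisson 95% intervals, ratios with exact conditional binomial intervals and shares with Clopper-Pearson intervals. For thinned shares the Clopper-Pearson formula was applied to expected counts, so those intervals are approximate. Where no UMI was found, folds used a limit of 3 UMIs. Genes were called at a ratio of 2 among those with at least 20 UMIs; the shares over all genes include genes without a UMI in 1 library. The functions were tested on simulated data. edgeR 4.0.16 gave TMM factors for an alternative. Named were the 8 members, the genes with the largest and smallest ratio of each list (up to 3 per direction), near-identical copies with at least 20 UMIs and the 3 genes closest to each member; other genes in the text were chosen after their values were seen. Promoters came from RefSeq (GRCm38.p6), without any match for Gsta4.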

Additional observations from a re-analysis of the deposited data

Results flagged for a closer look

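In 3 cases a member was higher in CCl4 than in healthy hepatic cells but lower in mesothelial-like cells. The ratio of CCl4 to healthy CPM in mesothelial-like cells was 0.111 for Gsta3, against 1.90 in hepatic cells. It was 0.152 for Gstm1, against 5.16, and 0.448 for Gstm2, against 7.67. With 1 library per condition these differences between classes were not tested, and for Gsta3 the hepatic ratio was 1.15 in the low-UMI cluster.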

How the results depend on the processing

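No paired analysis was possible because each condition has 1 library. The 3 summaries in hepatic cells (median log2 ratio 2.19, log2 ratio of the sum 1.67, 6 members at least 2-fold higher) kept their direction in each alternative, and the count stayed between 4 and 7. The median and the sum were, in this order, 1.88 and 1.37 with TMM scaling, 1.96 and 1.44 without the 50 most abundant genes, 1.49 and 1.02 with a mitochondrial limit of 10%, 2.36 and 1.84 with none, 1.43 and 0.97 when all cells were given equal weight, 1.32 and 0.70 at 500 to 2000 UMIs, and 2.68 and 2.10 with background subtracted. In alternatives chosen after seeing the data they were 1.24 and 0.90 in the low-UMI cluster and 1.05 and 0.62 in all its cells without the gate. The sum was 1.76 with at least 2% of UMIs from the gate genes, and the median 1.59 over subfamily sums. In mesothelial-like cells the sum was -1.31, and -1.21 with TMM scaling and -1.25 without the 50 most abundant genes. Gsta1, Gstm1, Gstm2 and Gstm3 had log2 ratios of at least 1 in all 13 settings; Gsta3 ranged from -0.16 to 1.31 and Gstt1 from -0.65 to 0.46, each changing direction with the cells compared, and Gsta4 from 0.15 to 2.08 and Gstp1 from 0.80 to 2.50. Of all genes called at 2-fold, 36.6% were higher, against 21.8% with TMM scaling and 25.1% without the 50 most abundant genes, and the median over all genes moved from 0.06 to -0.24 and -0.17. Depth limits Gsta1 and Gstm3 in the low-UMI cluster, with 1 and 3 healthy UMIs. The cause of these shifts was not tested.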
